A study of Mus musculus with 14 samples.

Results

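Sertoli cells are the somatic nurse cells of the seminiferous tubule, and 9 genes known to mark them were read here in libraries of sorted mouse germ cells. The 9 genes were taken by name: Sox9, Wt1, Gata4, Amh, Clu, Inha, Fshr, Aard and Cldn11. All 9 had counts in every library, out of 38444 genes listed in the count tables. The libraries held polyadenylated RNA of 2 sorts. Spermatogonia (Spg) were taken at postnatal day 14 as cells positive for Ep-CAM and negative for β2-microglobulin. Spermatocytes (Spc) came from mice older than 20 days and were sorted by DNA content with no antibody.

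The genotypes were Dnmt3CKO/KO (KO) and wild type (WT), on a C57Bl6/J background and from littermates, with no further allele or treatment. DNMT3C is a DNA methyltransferase of the male germ line, its loss is constitutive in these mice, and Sertoli cells of KO animals carry the same knockout alleles as their germ cells. Each genotype had 3 spermatogonia libraries and 4 spermatocyte libraries. Germ cells of KO animals arrest in meiosis, so the KO spermatocyte sort lacks the later cells that the WT sort holds. Nothing in the labels ties a library to 1 animal, so the p-values measure the spread between libraries, which may in part be technical.

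Library totals ran from 40555726 to 53323651 counts. The Dnmt3c gene itself had 58 to 116 counts in spermatogonia labelled KO against 53 to 89 in those labelled WT. In spermatocytes it had 52 to 57 against 11 to 28, KO first. These counts were not lower in KO, so they do not check the labels, and KO and WT below mean the libraries labelled so, also wherever a direction is given. WT spermatocyte replicate 3 stood apart from its group in most results below, and KO and WT spermatocyte replicates 1 and 4 were each other's closest match within their genotype. Whether those came from separate animals is not known, so an n of 4 may count 1 sample more than once.

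In the testis a Sertoli cell holds several germ cells at once, feeds them, and closes the tubule off with tight junctions known as the blood-testis barrier. SOX9 sets up the Sertoli fate in the fetal gonad, and WT1 and GATA4 are transcription factors that maintain it. AMH is a hormone of immature Sertoli cells that falls away around puberty, inhibin lowers the release of follicle-stimulating hormone (FSH), and FSHR is the receptor through which FSH acts on the cell. Several of these genes are not restricted to Sertoli cells: Gata4 and Inha are also known from Leydig cells, and Clu from many epithelia.

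On GRCm38 the transcription factor genes lie at chr11:112782224-112787760 on the plus strand (Sox9), at chr2:105126529-105173616 on the plus strand (Wt1) and at chr14:63198922-63271692 on the minus strand (Gata4). The hormone and receptor genes lie at chr10:80805243-80807648 on the plus strand (Amh), chr1:75507077-75510366 on the plus strand (Inha) and chr17:88984952-89200675 on the minus strand (Fshr). Clu, which codes for a secreted chaperone, lies at chr14:65968483-65981547, Cldn11, which codes for a claudin of the barrier, at chr3:31149920-31164324, and Aard, a testis gene of little known function, at chr15:52040107-52045722, all on the plus strand. The 9 genes thus lie on 8 chromosomes, with Gata4 and Clu on the same one.

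The RefSeq promoter table on GRCm38.p6 matched 3 of the 9 genes by symbol, and the window of Inha lay inside the gene as annotated by GENCODE. The 250 bases before the start of the other matches, Cldn11 (chr3:31149670-31149919, plus strand) and Fshr (chr17:89200676-89200925, minus strand), are shown because they are the upstream windows at hand and differ in kind. Capitals mark matches on either strand. The letters searched were CACGTG for the E-box, GATAA for the core read by GATA factors, CCAAT for the box of that name, GGGCGG for the GC box, AACAAT for a core read by SOX factors, AAGGTCA for the site read by SF1 and TATAAA for the TATA box.
Cldn11: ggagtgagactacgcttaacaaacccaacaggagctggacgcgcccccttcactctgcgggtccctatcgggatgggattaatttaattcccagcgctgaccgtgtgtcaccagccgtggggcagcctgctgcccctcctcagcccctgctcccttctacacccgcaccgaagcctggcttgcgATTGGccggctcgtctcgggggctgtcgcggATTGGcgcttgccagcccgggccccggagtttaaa
Fshr: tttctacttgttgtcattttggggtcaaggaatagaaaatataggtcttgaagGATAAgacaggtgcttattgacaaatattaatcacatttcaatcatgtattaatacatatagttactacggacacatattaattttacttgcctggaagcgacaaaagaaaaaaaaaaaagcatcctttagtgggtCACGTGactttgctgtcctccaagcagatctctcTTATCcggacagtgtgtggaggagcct

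The Cldn11 window was 63.6% G or C with 19 CpG, against a median of 52.4% and 6 CpG over 32851 promoters, and it held CCAAT on the opposite strand at 66 and 35 bases before the start. The Fshr window was 36.8% G or C with 4 CpG, held the E-box at 61 bases before the start, and held GATAA at 197 and, on the opposite strand, at 27 bases. An E-box was found in 6.02% of all promoter windows, GATAA in 22.6% and CCAAT in 33.9%. None of the other 4 motifs matched either window, which says only that those letters are not there. No motif was found in both windows.

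Levels below are CPM, counts per 1000000 counts on a scale shared by all 14 libraries. Per kilobase of exon, Clu ranked first in 13 of 14 libraries and Aard in the remaining one, and the pair held the top places in all 14. Inha and Cldn11 came next in all 14, Inha the higher in 12, and Fshr was the lowest of the 9 in all 14. In WT spermatogonia the levels per kilobase were 126 ± 75.0 for Clu, 106 ± 74.2 for Aard, 41.3 ± 24.4 for Cldn11, 39.4 ± 17.8 for Inha, 7.66 ± 4.70 for Wt1, 7.57 ± 6.85 for Amh, 6.72 ± 5.03 for Sox9, 5.98 ± 4.52 for Gata4 and 1.35 ± 0.939 for Fshr (SD, n = 3). The 9 genes thus fell into a high set of 4, a middle set of 4 and Fshr. Neighbours in that order overlapped in range in 7 of 8 pairs, and Inha stood clear of Wt1. In KO spermatocytes all 8 neighbouring pairs overlapped, and Gata4, at 11.7 ± 9.55 per kilobase (SD, n = 4), ranked above Wt1 at 6.60 ± 3.55.

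The spread between libraries of 1 group was wide, and it was shared by the genes. The 9 genes together took 1806, 706 and 544 CPM in KO spermatogonia replicates 1 to 3, and 1379, 721 and 379 CPM in WT. In spermatocytes they took 1292, 483, 361 and 1210 CPM in KO replicates 1 to 4, and 193, 208, 579 and 158 CPM in WT. The highest library of a group held 3.32 to 3.66 times the level of its lowest. As a share of all counts the 9 genes ran from 0.00956% to 0.214%.

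**Figure D1:**
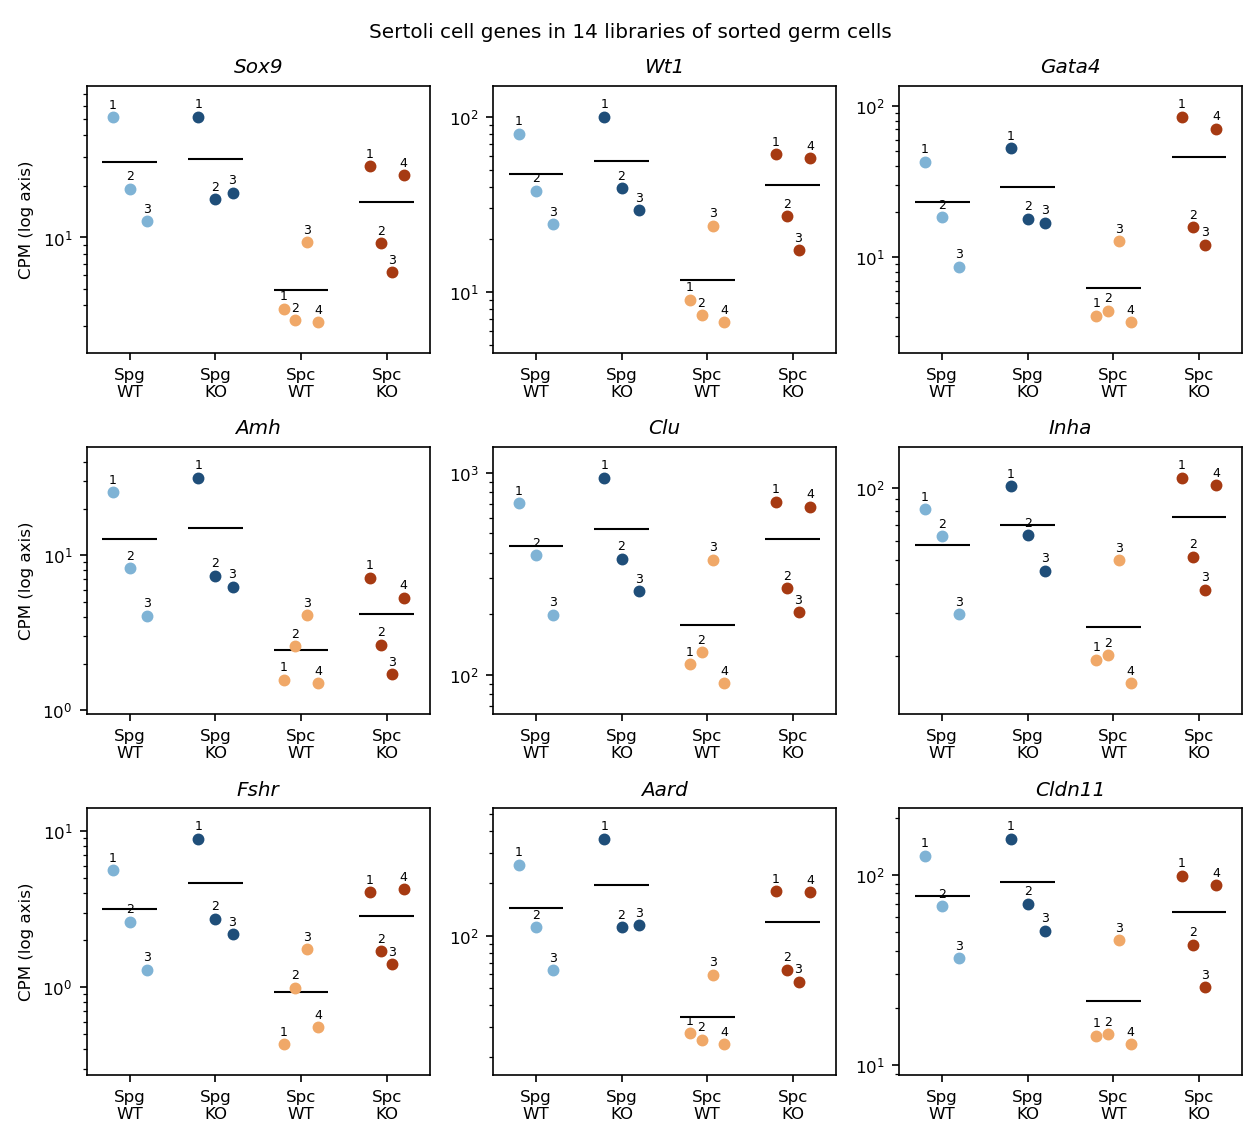
Level of each of the 9 Sertoli cell genes in every library, as CPM on a log axis, with points numbered by replicate and a line at the mean of each group (3 spermatogonia or 4 spermatocyte libraries per genotype). Replicate 1 is the highest point of both spermatogonia groups in all 9 panels, and replicate 3 is the highest WT spermatocyte point in all 9.

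The same libraries were high for gene after gene. In spermatogonia replicate 1 was the highest library of both genotypes for 9 of 9 genes, and WT replicate 3 the lowest WT library for 9 of 9. In KO spermatocytes replicate 1 was the highest for 8 genes and replicate 4 for Fshr, while replicate 3 was the lowest for 9 of 9. In WT spermatocytes replicate 3 was the highest for 9 of 9. The SD of a gene's log2 CPM within a group had a median over the 9 genes of 0.93 in KO and 1.01 in WT spermatogonia, and of 0.92 in KO and 0.83 in WT spermatocytes. The SD of its log2 ratio to the mean of the 9 in the same library was far smaller, with a median of 0.16 and 0.16 in KO and WT spermatogonia and of 0.13 and 0.18 in KO and WT spermatocytes. The members thus moved up and down together while their proportions stayed close. In bulk libraries, more or fewer cells of a type and more or less RNA per cell cannot be told apart.

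Sox9 serves as a yardstick for those proportions, though it differed by stage itself. Its mean log2 ratio to the mean of the 9 was -0.79 and -0.60 in KO and WT spermatogonia. In KO and WT spermatocytes that ratio was -1.16 and -1.17. Wt1 ran from 156 to 233 counts per 100 Sox9 counts in spermatogonia and from 212 to 292 in spermatocytes. Aard ran from 497 to 700 in spermatogonia and from 637 to 871 in spermatocytes. These genes kept within a narrow band over libraries whose Sox9 level ran from 3.17 to 51.5 CPM.

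Gata4 and Amh stood apart in KO spermatocytes, though Amh kept to no narrow band in the other libraries. Gata4 stood at 102, 107 and 92.4 counts per 100 Sox9 counts in KO spermatogonia, at 83.4, 94.7 and 69.7 in WT spermatogonia and at 108, 136, 137 and 118 in WT spermatocytes. In KO spermatocytes it stood at 323, 171, 194 and 303. Every KO spermatocyte library lay above all other libraries, and replicates 1 and 4 lay highest. Amh stood at 27.2, 28.6, 27.4 and 22.8 counts per 100 Sox9 counts in KO spermatocytes, against 41.5, 79.6, 43.7 and 47.3 in WT spermatocytes. In spermatogonia Amh ran from 32.8 to 61.4, so the 4 KO spermatocyte libraries were the lowest of the 14. These ratios were singled out after their values were seen and carry no test.

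**Figure D2:**
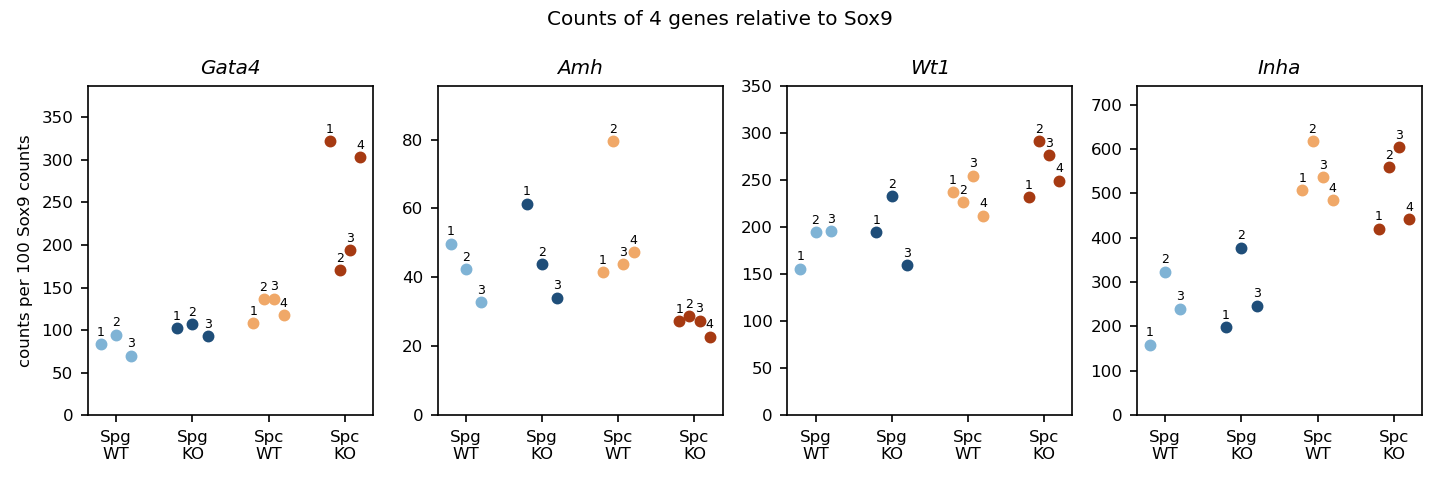
Counts of Gata4, Amh, Wt1 and Inha per 100 counts of Sox9 in the same library, with points numbered by replicate and axes starting at 0. Gata4 reaches 171 to 323 in KO spermatocytes against at most 137 elsewhere, while Amh is lowest there, at 22.8 to 28.6.

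Inha differed by stage against Sox9. It ran from 159 to 378 counts per 100 Sox9 counts in spermatogonia and from 421 to 619 in spermatocytes. The ranges of the stages did not overlap, and within spermatogonia replicate 1 was the lowest library of both genotypes. Clu also differed by stage, at 1378 to 2230 in spermatogonia and 2735 to 3977 in spermatocytes. Sox9 stood lower against the mean of the 9 in spermatocytes, so part of both differences lies in the yardstick. Against that mean the log2 ratio of Inha averaged 0.62 and 0.61 in KO and WT spermatogonia and 1.17 and 1.24 in KO and WT spermatocytes. For Clu it averaged 3.38 and 3.44, then 3.72 and 3.92.

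The first comparison asked whether loss of DNMT3C went with a change of the 9 genes in spermatogonia. In replicates 1 to 3 Sox9 read 51.5, 16.8 and 18.4 CPM in KO and 51.5, 19.4 and 12.4 CPM in WT. Gata4 read 52.7, 18.0 and 17.0 CPM in KO and 42.9, 18.4 and 8.67 CPM in WT. Amh read 31.6, 7.38 and 6.26 CPM in KO and 25.6, 8.22 and 4.08 CPM in WT. The genotypes overlapped for these genes and for the other 6, where 11.9% of all features did not overlap, and replicate 1 of each genotype lay well above the other libraries.

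Fitted log2 fold changes of KO over WT ran from 0.01 for Sox9 (SE 0.60) to 0.49 for Fshr (SE 0.67), with a median of 0.23 against 0.02 over all genes. In between lay Wt1 at 0.20, Amh at 0.20, Cldn11 at 0.21, Inha at 0.23, Clu at 0.23, Gata4 at 0.28 and Aard at 0.40. None of the 9 passed an adjusted p of 0.01 (edgeR quasi-likelihood test, Benjamini-Hochberg adjustment, two-sided), all with an adjusted p of 1.00, and none had an unadjusted p under 0.05. Over all features 0.0741% were called. DESeq2 called 0 of the 9 as well, where it called 2.49% of all features. With same-numbered libraries paired as a replicate block, all 9 values were positive, from 0.08 to 0.46, and 0 were called. Without the pairing the sign depended on single libraries. Without WT replicate 3, the lowest WT library, 7 of 9 values were negative, from -0.35 for Sox9, and without WT replicate 2 Sox9 was at -0.16. Without KO replicate 1 all 9 values were negative, from -0.91 for Amh to -0.11 for Inha, and without WT replicate 1 they ran from 0.53 to 1.23.

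The next comparison asked the same of spermatocytes. All 9 genes had a higher mean in KO than in WT, and the genotypes overlapped for all 9, since WT replicate 3 reached above KO replicate 3, where 67.5% of all features did not overlap. Gata4 read 84.8, 15.8, 12.1 and 70.7 CPM in KO and 4.11, 4.43, 12.8 and 3.72 CPM in WT. Its log2 fold change was 2.90 (SE 0.71, adjusted p = 0.00427, edgeR), and it rose in KO. Aard read 181, 63.7, 54.5 and 178 CPM in KO and 27.6, 25.3, 59.7 and 23.8 CPM in WT. It rose by 1.84 (SE 0.47, adjusted p = 0.00562, edgeR). For both genes replicates 1 and 4 of KO lay high and replicate 3 was the single WT library that reached above a KO library, KO replicate 3.

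The other 7 genes did not pass. Wt1 read 61.0, 27.0, 17.3 and 58.1 CPM in KO and 9.01, 7.38, 23.9 and 6.71 CPM in WT, which gave a fitted log2 difference of 1.83 (SE 0.53, adjusted p = 0.0104, edgeR). Inha read 111, 51.8, 37.7 and 103 CPM in KO and 19.2, 20.1, 50.2 and 15.3 CPM in WT, which gave a fitted log2 difference of 1.56 (SE 0.46, adjusted p = 0.0111, edgeR). Both stayed just short of a call, with the same libraries high as for Gata4. Sox9 read 26.3, 9.26, 6.25 and 23.3 CPM in KO and 3.80, 3.26, 9.37 and 3.17 CPM in WT, which gave a fitted log2 difference of 1.76 (SE 0.56, adjusted p = 0.0164, edgeR). Cldn11, Fshr and Clu had log2 fold changes of 1.59, 1.64 and 1.44 with adjusted p of 0.0204, 0.0234 and 0.0323 (edgeR).

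Amh differed least. It read 7.16, 2.65, 1.72 and 5.32 CPM in KO and 1.57, 2.59, 4.10 and 1.50 CPM in WT, which gave a fitted log2 difference of 0.82 (SE 0.52, adjusted p = 0.184, edgeR). KO replicates 1 and 4 lay above every WT library for this gene, and KO replicates 2 and 3 lay within the WT range.

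Read against the background, 2 of 9 genes were called where 57.4% of all features were, 27.4% as higher in KO. The median of the 9 was 1.64 against 0.11 over all genes. The calls rested on single libraries: 8 of 9 genes were called without WT replicate 3, with 60.5% of all features called, and 6 without KO replicate 3, with 52.0%. None was called without any 1 of KO replicates 1 and 4 and WT replicates 1, 2 and 4, with 45.6% to 50.4% of all features called. With replicates 1 and 4 of each genotype summed into 1 library, 0 of 9 were called and the largest value was 2.38 for Gata4.

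**Figure D3:**
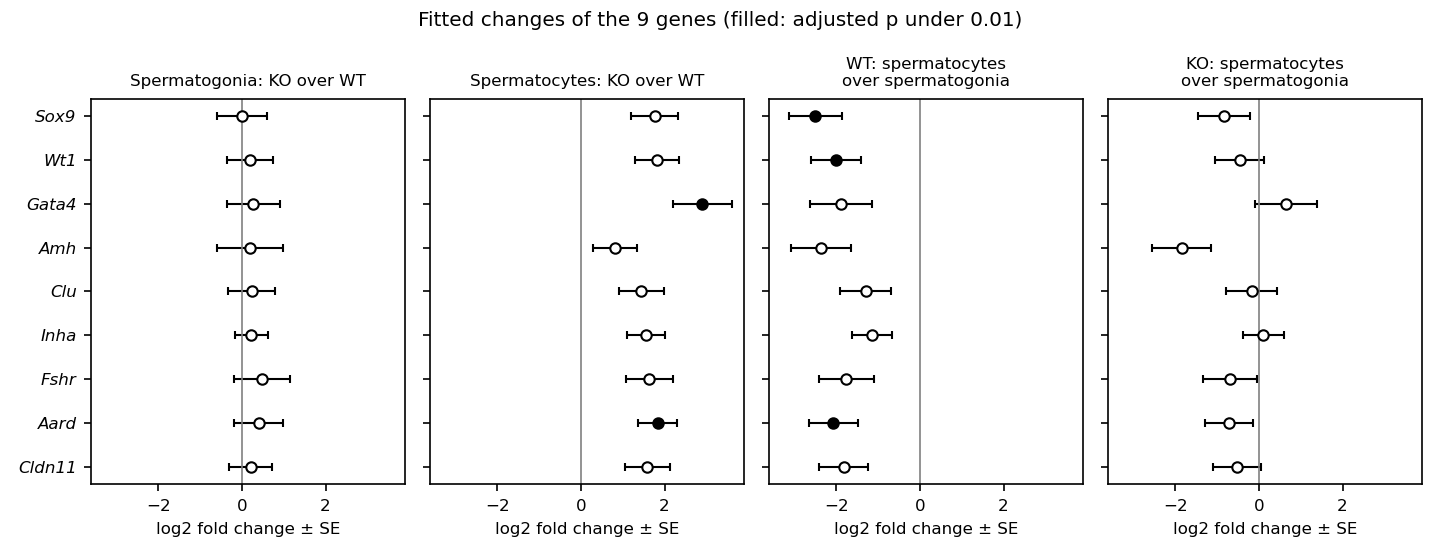
Fitted log2 fold changes (points) with their standard errors (bars) for the 9 genes in 4 comparisons, filled where the adjusted p is under 0.01. Spermatogonia values lie within 0.49 of 0, those of spermatocytes run from 0.82 to 2.90 for KO over WT, and the WT stage comparison runs from -2.50 to -1.15.

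The third comparison set WT spermatocytes against WT spermatogonia, in 1 fit over all 14 libraries. All 9 genes had a lower mean in spermatocytes. Sox9 went from 27.8 ± 20.8 to 4.90 ± 2.99 CPM and fell, with a log2 value of -2.50 (SE 0.64) and an adjusted p of 0.00349 (edgeR). Aard went from 144 ± 99.96 to 34.1 ± 17.2 CPM and fell by 2.07 (SE 0.59, adjusted p = 0.00657, edgeR). Wt1 went from 47.4 ± 29.1 to 11.7 ± 8.13 CPM and fell by 2.01 (SE 0.59, adjusted p = 0.00870, edgeR; SD, n = 3 and 4 for all 3 genes). For these 3 genes the stages did not overlap in range, and over all features tested 65.2% did not, 29.8% with the lower level in spermatocytes.

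The remaining 6 did not pass. Amh, the hormone of the immature cell, went from 12.6 ± 11.4 to 2.44 ± 1.21 CPM (SD, n = 3 and 4), a log2 fold change of -2.37 (SE 0.72, adjusted p = 0.0102, edgeR). Cldn11, Gata4 and Fshr had values of -1.82, -1.89 and -1.76, and Clu and Inha of -1.30 and -1.15. Of the 9 genes 3 were called, all lower, where 51.4% of all features were called and 22.5% were lower. The sorts differed in antibody and age, so stage, age and sort cannot be told apart. On library totals, which moved the median of all genes to -0.76, 8 of 9 were called, with 53.1% of all features. None was called without any 1 of WT spermatogonia replicate 1 and WT spermatocyte replicates 1, 2 and 4, with 41.4% to 48.5% of all features called, and 6 were called without WT spermatocyte replicate 3, with 54.5% of all features. With spermatocyte replicates 1 and 4 of each genotype summed, 0 of 9 were called, with 45.0% of all features.

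The fourth comparison set KO spermatocytes against KO spermatogonia, which shares its libraries with the genotype comparisons above. None of the 9 genes was called by edgeR, where 2.99% of all features were, or by DESeq2, where 9.53% were, and the stages overlapped for all 9, where 26.2% of all features did not. Fitted log2 values ran from -1.84 for Amh (SE 0.71, adjusted p = 0.126, edgeR) to 0.65 for Gata4 (SE 0.74, adjusted p = 0.618, edgeR). The others were Sox9 at -0.83, Aard at -0.72, Fshr at -0.69, Cldn11 at -0.52, Wt1 at -0.46, Clu at -0.17 and Inha at 0.11. Amh was the 1 gene with an unadjusted p under 0.05, at 0.0208. The 9 genes together averaged 837 ± 482 CPM in KO spermatocytes (SD, n = 4) and 1018 ± 687 CPM in KO spermatogonia (SD, n = 3). Replicate 1 carried the spermatogonia mean, at 1806 CPM against 706 and 544, and the ranges overlapped. The SE of the single genes, 0.49 to 0.74 on the log2 scale, sets the size of a change that could have been seen here. Without KO spermatogonia replicate 1 the sign of 5 genes turned (Wt1, Clu, Fshr, Aard and Cldn11), to between 0.01 and 0.51.

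Whether the KO effect itself differed between stages was tested by the interaction term. All 9 values were positive, larger in spermatocytes, from 0.53 for Amh (SE 1.00) to 2.54 for Gata4 (SE 1.05, adjusted p = 0.0625, edgeR). In between lay Fshr at 1.06, Clu at 1.13, Inha at 1.25, Cldn11 at 1.30, Aard at 1.36, Wt1 at 1.55 and Sox9 at 1.67. None was called, where 24.9% of all features were. Gata4 alone had an unadjusted p under 0.05, at 0.0300. The larger KO values in spermatocytes are therefore not shown to differ from those in spermatogonia. The median of all genes was 0.20 in this contrast.

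A wider list of 30 Sertoli cell genes was read in the same fits, and 29 were tested in each genotype comparison. It holds further transcription factors (Sox8, Dmrt1, Nr5a1), ligands that act on germ cells (Kitl, Gdnf, Dhh), secreted proteins (Trf, Cst9, Cst12, Inhbb) and junction genes (Ocln, Tjp1, Gja1, Cldn3). In spermatogonia 0 of 29 were called, where 0.0741% of all features were. In spermatocytes 12 were higher and 1 lower in KO, where 27.4% and 30.1% of all features were, with a median of 1.65. Among the largest rises were those of Inhba at 7.16 (SE 1.15), the transferrin gene Trf at 4.10 (SE 0.61) and Kitl, the ligand of the receptor KIT, at 3.99 (SE 0.78), all with an adjusted p under 0.01 in edgeR. The 1 gene that fell was the cadherin gene Cdh2, at -3.13 (SE 0.46). The count of 13 called went to 24 without WT replicate 3, where 60.5% of all features were called, and to 6, 7 and 6 without WT replicates 1, 2 and 4, where 45.6%, 50.4% and 46.1% were. It was 6 with replicates 1 and 4 of each genotype summed, where 38.2% were.

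Part of that list did not run with the 9 genes. Inhba had 0 to 7 counts in spermatogonia and 1 to 7 in WT spermatocytes, and 116 to 1890 in KO spermatocytes. Trf averaged 4.25 ± 0.834 CPM in KO spermatogonia, 5.95 ± 1.78 in WT spermatogonia, 2.96 ± 2.45 in WT spermatocytes and 49.9 ± 21.2 in KO spermatocytes (SD, n = 3 or 4). Cdh2 averaged 72.0 ± 2.16 and 75.3 ± 12.4 CPM in KO and WT spermatogonia, so it lacked the high replicate 1 of the 9 genes, and 269 ± 159 CPM in WT spermatocytes against 30.8 ± 4.82 in KO. Between the WT stages Dmrt1, a gene that spermatogonia are known to use too, fell by 3.67 (SE 0.68), Ocln by 2.87 (SE 0.67), Shbg by 2.05 (SE 0.57) and Etv5 by 2.04 (SE 0.56), and Cdh2 rose by 1.84 (SE 0.39), where 5 of 30 were called against 51.4% of all features. That count was 3 without WT spermatogonia replicate 1 or WT spermatocyte replicate 1, 2 or 4, where 41.4% to 48.5% of all features were called. It was 8 to 18 without any 1 of the other libraries, where 41.8% to 54.5% were. In KO, Inhba and Trf were the 2 genes called between stages, both higher in spermatocytes, which is 2 of 30 against 2.99% of all features, and 0 were called without any 1 of the KO spermatogonia replicates, where the share of all features called fell to between 0.428% and 0.832%. The interaction was called for 4 of 30, against 24.9% of all features, with Inhba, Trf and Vim positive and Cdh2 negative. It was called for 2 to 8 with 1 library left out, where 14.6% to 36.4% of all features were called.

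Markers of other somatic cells were read beside the 9 genes, since the spermatocyte sort used no antibody. In spermatogonia they were low: the 6 Leydig genes summed to 3.79 to 9.67 CPM, the 6 macrophage genes to 0.674 to 2.75, the 6 peritubular myoid genes to 9.63 to 19.8 and the 6 endothelial genes to 6.64 to 10.99. The Leydig and macrophage sums were highest in replicate 2 within each genotype. The peritubular sum was highest in replicate 2 within WT, and in replicate 1 within KO, at 17.5 CPM against 14.4 and 12.2. The endothelial sum was highest in replicate 1 of both genotypes, as the 9 Sertoli cell genes were, at 10.99 and 9.13 CPM against 6.64 to 7.96 in the other libraries. The part of the endothelial and peritubular differences in the values of the 9 genes was not tested. Of all these markers the endothelial gene Emcn was at 0 in every WT spermatogonia library, and the rest had counts in every group.

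In KO spermatocytes the other somatic lists were high, in a comparison where 27.4% of all features were called higher and 30.1% lower. Leydig genes summed to 356, 57.3, 64.9 and 290 CPM in KO replicates 1 to 4, against 14.1 to 30.4 in WT, and 6 of 6 rose. Macrophage genes summed to 59.0, 109, 24.3 and 55.5 CPM, against 4.14 to 6.11 in WT, and 6 of 6 rose. Peritubular and endothelial genes ran from 31.0 to 224 and from 24.5 to 192 CPM, against at most 17.7 and 8.23 in WT, and 4 of 6 rose in each list, against the same 27.4%. The Leydig and endothelial sums were highest in KO replicates 1 and 4, as were the 9 Sertoli cell genes and the ratio of Gata4 to Sox9. So were Inhba and Kitl of the wider list, while the macrophage and peritubular sums were highest in KO replicate 2. The part of these cells in the values of Gata4 and of the wider list was not tested. Between the WT stages, where 3 of the 9 Sertoli cell genes fell, 3 of 6 Leydig and 2 of 6 macrophage genes rose, where 28.9% of all features did, and 0 of 6 peritubular and 0 of 6 endothelial genes were called.

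WT spermatocyte replicate 3, the high WT library for the 9 genes, stayed below all KO libraries in the Leydig, macrophage, peritubular and endothelial lists. Its Leydig sum was 21.0 CPM and its endothelial sum 7.55 CPM, both second to WT replicate 2. Its macrophage and peritubular sums, at 6.11 and 17.7 CPM, were the highest of WT, with the next at 4.88 and 16.5, against 24.3 and 31.0 in KO replicate 3, the lowest KO library. Its erythroid sum, at 7.59 CPM, was above KO replicates 2 and 3, at 1.77 or less, and above the next WT library, at 2.64. Alas2, a heme synthesis gene, carried it with 293 counts against 39 to 43 in the other WT libraries, while the 4 globin genes had 0 to 12 counts there. Its pachytene list of 6 genes summed to 8095 CPM, against 12993 to 14605 in the other WT libraries, and its spermatid list to 1458 CPM, the highest of the 14 libraries. Its early meiotic sum, at 1873 CPM against 1050 to 1159 in the other WT libraries, was also the highest of the 14. Most genes of spermatogonia and early meiosis were high there along with the 9 genes. Zbtb16 had 586 counts against 39 to 92 in the other WT libraries, and Kit 2031 against 136 to 572. Stra8 had 1310 against 65 to 536 and Dmc1 1827 against 147 to 401. Gfra1, Id4, Ddx4 and Spo11 stood out little or not at all. Their raw counts were 267 against 136 to 194, 6515 against 3757 to 7559, 43634 against 34530 to 38863 and 5109 against 4057 to 4882. The spermatogonia list summed to 1415 CPM there, below 1517 in WT replicate 2. In KO spermatocytes the pachytene list summed to 130 to 259 CPM and 6 of 6 fell, where 30.1% of all features did. In spermatogonia it summed to 80.7 to 90.2 CPM in KO and to 387, 1399 and 188 CPM in WT replicates 1 to 3. There 0 of 6 were called, where 0.0741% of all features were. The erythroid list summed to 0.450 to 11.9 CPM over all 14 libraries, with 0 of 2 tested genes called in KO spermatocytes. The part of these differences in germ cell make-up in the values of the 9 genes was not tested.

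**Figure D4:**
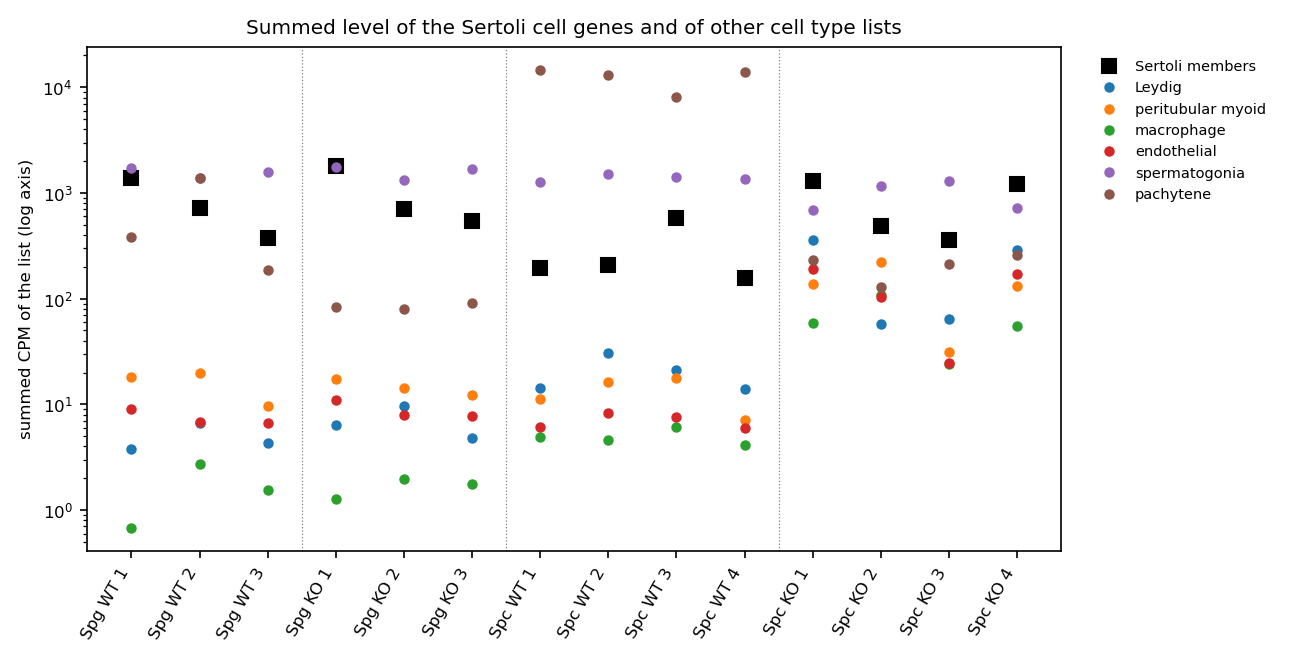
Summed CPM of the 9 Sertoli cell genes (black squares) and of lists for 6 other cell types in each library, on a log axis, with dotted lines between groups. The Sertoli cell genes lie between 158 and 1806 CPM in every library, while the Leydig, macrophage, peritubular and endothelial lists reach 24.3 CPM or more in every KO spermatocyte library and stay at or below 30.4 CPM in all others.

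The 9 Sertoli cell genes summed to more than each of the 4 other somatic lists of 6 genes in all 14 libraries. Clu, which is known from many epithelia, gave a large part of that sum. In KO spermatocyte replicate 2 it gave 268 of 483 CPM, where the peritubular list summed to 224 CPM. The 10 spermatogonia genes summed to 1341 to 1764 CPM in spermatogonia, 1260 to 1517 in WT spermatocytes and 696 to 1302 in KO spermatocytes. The sum in WT spermatocytes was carried by Ddx4, a helicase gene of germ cells at large, with 34530 to 43634 counts, and it does not give the direction of the single genes. Between the WT stages 8 of the 10 were lower and 2 higher in spermatocytes, against 22.5% and 28.9% of all features, with a median of -3.53, and in KO against WT spermatocytes 6 were higher and 2 lower, against 27.4% and 30.1%, with a median of 2.79. In KO spermatocytes the sum was lowest in replicates 1 and 4, the libraries highest in the 9 genes. The early meiotic list ran from 549 to 1873 CPM over all libraries. Epcam codes for the protein that the spermatogonia sort selected and B2m for the one it removed. B2m had 850, 384 and 438 counts in KO and 786, 569 and 327 in WT spermatogonia, highest in replicate 1 of both genotypes, as the 9 genes were. In spermatocytes it had 1085 to 5050 counts in KO and 164 to 522 in WT, and it was the 1 of the pair that rose in KO. Within each spermatocyte genotype it was highest in the library that held the highest sum of the 9 genes. Epcam had 2634 to 5415 raw counts in KO and 1307 to 1857 in WT spermatocytes. Scaling by the TMM factors, 1.05 to 1.23 in KO and 0.605 to 0.851 in WT, narrows that gap. The part of cells that express B2m in the values of the 9 genes was not tested.

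Over the 14 libraries each member followed the mean log2 CPM of the other 8, after the mean of each group was taken away, with Pearson's r from 0.948 for Amh to 0.988 for Clu. Among 17394 features with a mean count of at least 50, the 8 genes outside the members closest to their mean were Ldhb (r = 0.995), Nectin2 (0.994), Sox8 (0.994), Cpe (0.993), Inhbb (0.989), Gstm6 (0.989), Dmrta1 (0.989) and St6gal1 (0.988). Sox8 and Inhbb are on the wider list. The median r over all features was 0.06. These libraries share depth and batch between genes, and r is given as a measure of likeness with no test.

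Without taking away group means the closest 8 were Daam2 (r = 0.993), 4933402E13Rik (0.992), Inhbb (0.992), Ldhb (0.992), Pip5k1b (0.991), Gstm6 (0.991), Basp1 (0.991) and Mro (0.991), and Amh was the member that followed the others least, at 0.874. Ldhb, a lactate dehydrogenase gene, averaged 124 ± 88.4 and 92.5 ± 61.9 CPM in KO and WT spermatogonia and 99.5 ± 56.4 and 25.8 ± 12.5 CPM in KO and WT spermatocytes (SD, n = 3 or 4). Its order of groups was that of the sum of the 9. On the wider list Cldn3 and Cdh2 went against the members within groups, at -0.35 and -0.31, and Dmrt1 stood at -0.02.

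A separate deposited table gives TPM for single transposable element (TE) copies, scaled over TE copies alone. It lists 401 copies within the spans of the 9 genes, none of them in Sox9 or Amh, and 99 in spermatogonia and 82 in spermatocytes were above 0 in at least 1 library. Their summed TPM was 653, 186 and 71.9 in the KO spermatogonia libraries and 435, 169 and 96.9 in the WT ones. For spermatocytes the sums were 218, 183, 57.7 and 134 in KO and 2.19, 23.7, 58.5 and 15.2 in WT. Replicate 1 in spermatogonia and WT replicate 3 in spermatocytes were again the highest of their groups. Reads of a host transcript and of a copy inside it cannot be told apart in these values, and they carry no test.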

How the data were processed

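RNA of sorted spermatogonia and spermatocytes was sequenced as stranded polyadenylated libraries. The authors trimmed reads with cutadapt (4.0), aligned them to GRCm38 with STAR (2.7.3a) and counted genes and TE subfamilies together with TEtranscripts, and the deposited counts are raw. The authors also deposited TPM of single TE copies, used here for copies inside the 9 genes. Columns of fold changes and p-values from the authors' own comparisons (DESeq2 1.44.0) were not used. The versions are from the submitters' processing notes. One spermatogonia library per genotype that the study set aside was not analysed here.

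From the counts, edgeR (4.0.16, R 4.3.3) was run with its quasi-likelihood test, after filterByExpr and with TMM factors from all features, TE subfamilies included. Genotypes were compared within a stage. Stages and the interaction came from 1 fit of 4 groups over all 14 libraries. Calls are at an adjusted p under 0.01 (Benjamini-Hochberg over all features). An SE is the size of the log2 fold change divided by the square root of F. Levels are CPM with the TMM factors of all 14 libraries, and log2 CPM used a pseudocount of 0.5. The fits were tested on simulated data. Alternatives were DESeq2 (1.42.0), other scalings and filters, a threshold of 0.05, a replicate block, libraries left out in turn, and spermatocyte replicates 1 and 4 summed.

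In spermatogonia same-numbered KO and WT libraries deviated from their group means together (r = 0.757, 0.186 and 0.298 across features), so the numbers were taken to pair them in the replicate block. KO replicate 2 followed WT replicate 3 (r = 0.335) more closely than WT replicate 2, and the other unlike-numbered pairs had negative r. Only replicate 1 thus stood out as a pair. Replicates 1 and 4 of each spermatocyte group were much alike but differed by more than sampling noise (chi-square per degree of freedom 13.7 in KO and 20.4 in WT, against 64.1 to 386 for other pairs of 1 group), and were kept apart, as labelled. Repeat preparations of 1 sample could differ as much, and the study's text speaks of 3 biological replicates where the labels hold 4 spermatocyte libraries per genotype, so the fit with these replicates summed is given beside the calls.

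All 9 genes are named in every comparison. Of the wider list, up to 4 called genes with the largest rise and up to 4 with the largest fall are named, and the 8 genes most like the mean of the 9 by Pearson's r. The values of 1 gene of the wider list are not reported here. The members and lists were chosen with earlier results of these data known. Depth limits Fshr most, with 14 to 520 counts per library.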

Additional observations from a re-analysis of the deposited data

Results flagged for a closer look

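In WT spermatocytes replicate 3 lay far above the other 3 libraries, by a gap large against the range of the group (Dixon's test), for 7 of the 9 genes and for their sum. Its levels were 9.37 CPM for Sox9, 23.9 for Wt1, 12.8 for Gata4, 372 for Clu, 50.2 for Inha, 59.7 for Aard and 45.4 for Cldn11. The next highest libraries stood at 3.80, 9.01, 4.43, 129, 20.1, 27.6 and 14.5 CPM in the same order. The sum of the 9 genes was 579 CPM there against 208 CPM in the next. Chance passes this limit in about 1 of 20 groups, and 20 groups were tested, which share their libraries. Amh and Fshr were highest in the same library but did not pass.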

How the results depend on the processing

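Between genotypes in spermatocytes 2 of the 9 genes were called, and 7 with DESeq2 (67.5% of all features), 4 with its size factors (58.1%), 6 on library totals (58.1%), 4 with no filter beyond 1 count (38.5%), 8 at an adjusted p under 0.05 (71.4%), 0 with replicates 1 and 4 summed (38.2%), and 0 to 8 with 1 library left out. Between WT stages 3 were called, and 5 with DESeq2 (58.8%), 8 on library totals (53.1%), 5 with TMM on genes alone (51.8%), 5 with no filter beyond 1 count (39.9%), 7 at 0.05 (64.1%), 0 with replicates 1 and 4 summed (45.0%), and 0 to 6 with 1 library left out. All 9 values kept their sign in these 2 comparisons under every alternative run. The cause of the moves was not tested. Library totals moved the median of all genes from 0.11 to 0.79 between spermatocyte genotypes. In spermatogonia, between KO stages and in the interaction 0 of the 9 were called under every alternative run.

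With the replicate block 0 of the 9 were called between spermatocyte genotypes, where 50.9% of all features were, and 1, Sox9, between WT stages, where 47.2% were. It changed no other count of the 9. Of the wider list 7 in place of 13 were called between spermatocyte genotypes. Spermatocytes with the same number shared only that number (r = 0.105, 0.230, 0.0103 and 0.162 across features).

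With 1 library left out, log2 fold changes between spermatogonia genotypes ran from -0.68 to 0.80 for Sox9, -0.49 to 0.79 for Wt1, -0.44 to 1.04 for Gata4, -0.91 to 1.23 for Amh, -0.47 to 0.77 for Clu, -0.11 to 0.53 for Inha, -0.39 to 1.17 for Fshr, -0.36 to 1.097 for Aard and -0.36 to 0.75 for Cldn11. Between KO stages they ran from -0.82 to 0.20 for Wt1, -0.54 to 0.51 for Clu, -0.18 to 0.42 for Inha, -1.08 to 0.16 for Fshr, -1.05 to 0.014 for Aard and -0.86 to 0.024 for Cldn11, and Inha was also -0.015 on library totals and -0.094 with replicates 1 and 4 summed. The interaction of Amh ran from -0.40 to 1.76.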
